A study of Mus musculus with 32 samples.

Results

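The comparison described is that of mouse brains taken 21 days after implantation of BAL17VII lymphoma cells with brains of mice that received PBS. Its members were chosen by their titles, 5 BAL17VII brains at day 21 and 5 PBS brains at day 28, which makes 10 of the 32 samples of the study. All 21789 probe sets that carry 1 gene symbol were tested, and they represent 19938 genes. All animals were BALB/c with no engineered allele named in the labels, and 500000 BAL17VII cells had been implanted in the BAL17VII group, while the PBS group was operated on and received PBS without cells. BAL17 is a lymphoma line of B cells from BALB/c mice, and BAL17VII was derived from BAL17. The study also holds 5 brains at day 21 and 5 at day 28 after implantation of 500000 BAL17 cells, and 6 arrays of each cultured line. The labels call the tissue whole brain, and their extraction entry reads as frozen section and Trizol. They do not say whether the brains of a group came from separate litters or operations, so the p-values measure the spread between these samples. No PBS brains of day 21 are among the samples, so the day after surgery and the implanted cells cannot be told apart in this comparison.

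Lymphoma that grows in the brain brings the transcripts of dividing B cells into the tissue, among them the genes of the B cell receptor, of antigen presentation on MHC class II and of the mitotic spindle. The tissue around such a growth is known to respond with activated microglia and astrocytes, incoming myeloid cells and T cells, and with genes that interferons induce. In whole tissue, fewer cells of a type and less RNA per cell cannot be told apart.

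BAL17VII brains had higher levels of many genes of cell division, of some genes of B cells, antigen presentation and interferon response, and lower levels of few genes than PBS brains. Levels are log2 of the deposited intensities, differences are BAL17VII minus PBS on that scale with limma's standard error (SE), and calls were made at an adjusted p under 0.05 over all probe sets. Of 19938 genes, 216 were called (1.08%), of which 204 were higher (1.02%) and 12 lower (0.0602%), with a median over all genes of -0.01. The difference was at least 1 on the log2 scale for 85 of the 204 higher genes and at most -1 for 0 of the 12 lower genes. Among the called genes, the 5 BAL17VII values lay above all 5 PBS values for 115 of the 204 and below them for 12 of the 12, where 1.43% of all genes lay above without overlap and 1.22% below. The PBS mean of 121 of the 204 genes was under the lowest median of a PBS array (6.70). A median has as many probe sets under it as above it, and the share of all genes under 6.70 was not counted. RMA gives no detection call, so such a low level is not a measured absence, and background can shrink a difference there.

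**Figure D1:**
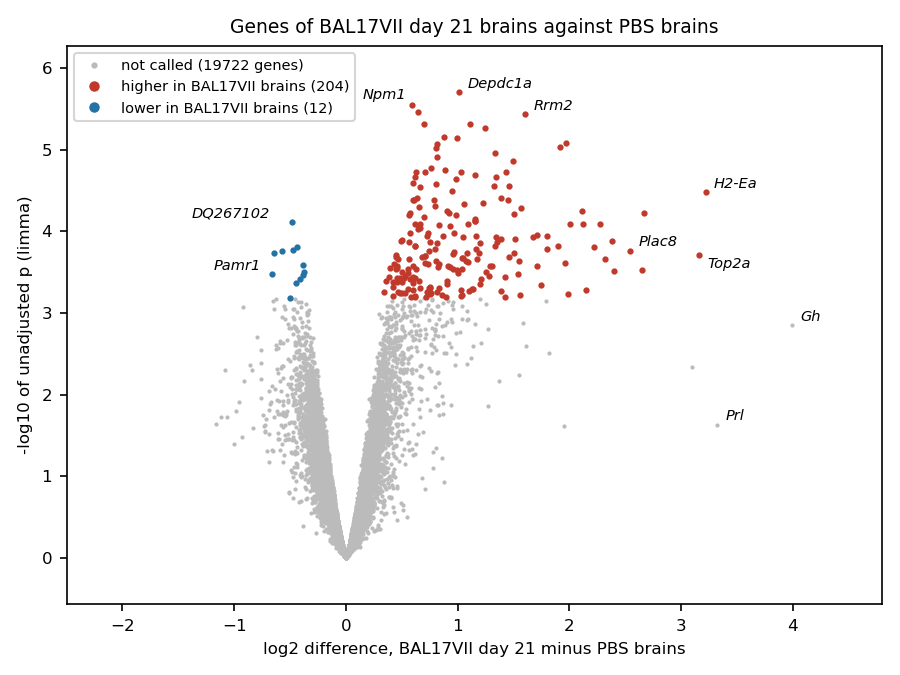
Each point is 1 of 19938 genes, with the log2 difference of BAL17VII day 21 minus PBS brains on the horizontal axis and -log10 of limma's unadjusted p on the vertical axis. Red points are the 204 genes called higher and blue points the 12 called lower. Gh and Prl, pituitary hormone genes, have larger differences than Top2a and were not called.

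The counts rested on single brains. BAL17VII brain 1 had B cell and division genes at the level of the PBS brains. Its mean over 25 mitosis genes was 5.75, the other BAL17VII brains had 7.63, 7.38, 7.08 and 7.42 (brains 2 to 5), and the PBS brains ranged between 5.69 and 5.79. Its mean over 16 B lineage genes was 5.96, against 7.32, 7.04, 6.77 and 7.09 in BAL17VII brains 2 to 5 and 5.91 to 6.10 in PBS brains. Both lists put the brains in the order 2, 5, 3, 4, 1. Without BAL17VII brain 1, 485 genes were called higher (2.43%) and 34 lower (0.171%), and these included all 204 and 11 of the 12. That brain is left out because of its low levels of the outcome itself, so values without it describe the other 4 brains and support nothing. Without BAL17VII brain 2, 3 or 5, limma called 0 genes, while 1953, 1866 and 2582 genes had an unadjusted p under 0.05, against 2664 with all brains. Without BAL17VII brain 4 the count of called genes was 561, and without PBS brain 1, 3, 4 or 5 it was 13, 18, 12 and 41. Every call in the following paragraphs from all 10 arrays is thus lost without any of BAL17VII brains 2, 3 and 5.

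**Figure D2:**
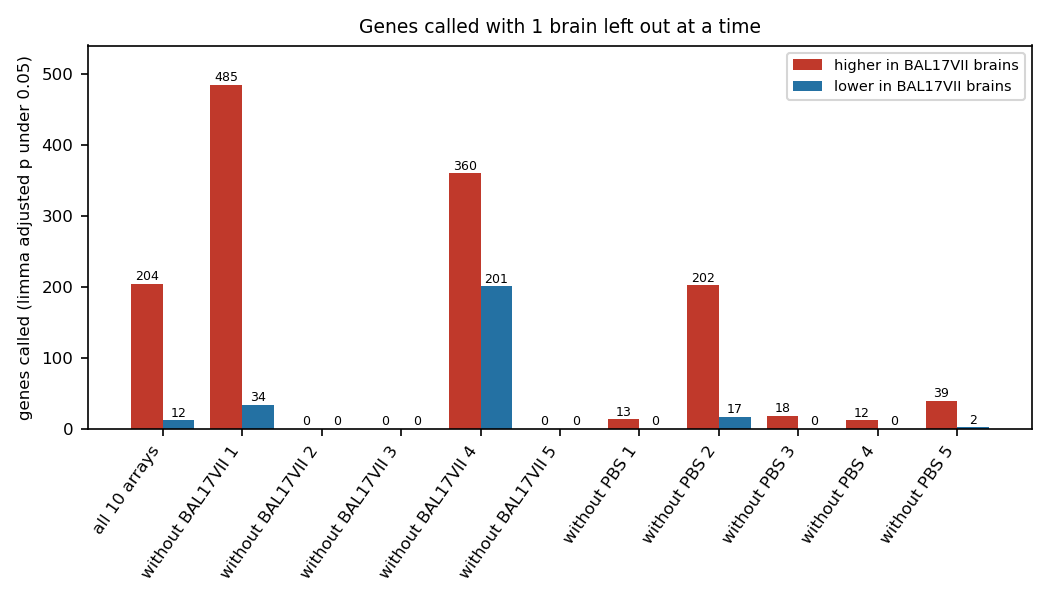
Bars give the number of genes called higher (red) and lower (blue) in BAL17VII than in PBS brains by limma, with all 10 arrays and with each array left out. The counts are 204 and 12 with all arrays, 485 and 34 without BAL17VII brain 1, and 0 without BAL17VII brain 2, 3 or 5.

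Brain 1 was not the same as the PBS brains in other respects. Of 46 gene lists, its mean lay inside the range of the PBS brains for 24, above it for 16 and below it for 6. The lists above the range included reactive astrocyte genes, with 6.80 in brain 1 and 6.53 to 6.69 in PBS brains, and Myc and ribosome biogenesis genes, with 8.47 in brain 1 and 8.20 to 8.40 in PBS brains. Myelin genes had 10.07 in brain 1 against 9.41 to 9.86 in PBS brains, and hypothalamic neuropeptide genes had 7.59 against 6.31 to 6.63. Cerebellar genes had 7.58 in brain 1 against 8.51 to 9.21 in PBS brains, so brain 1 stood highest of the 10 brains in myelin and hypothalamic genes and lowest in cerebellar genes.

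**Figure D3:**
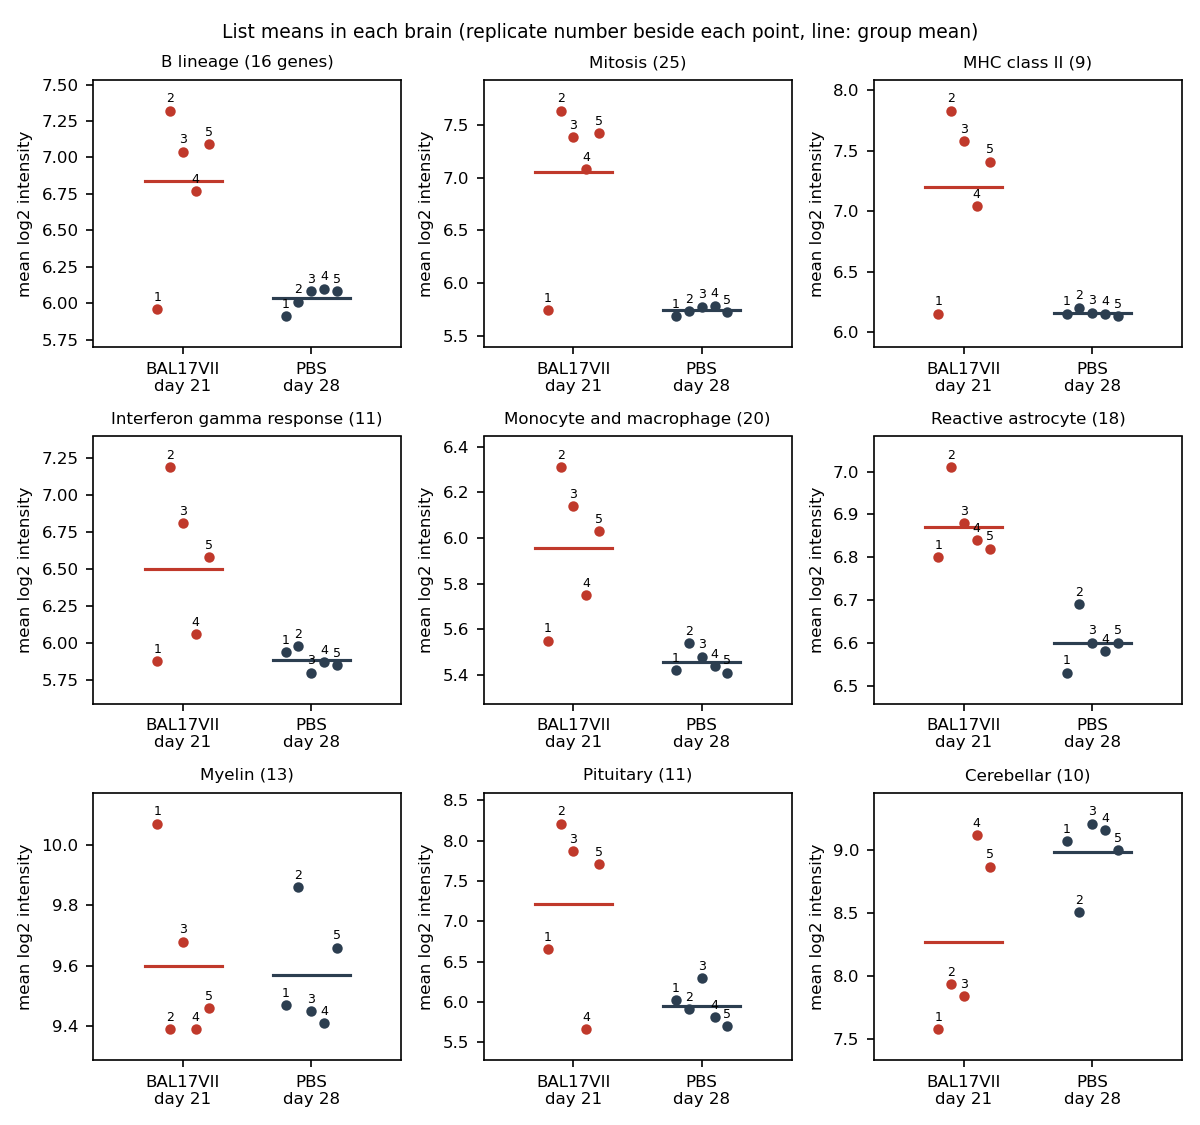
Each panel plots the mean log2 intensity of a gene list in every brain, with BAL17VII day 21 brains in red and PBS day 28 brains in dark blue, the replicate number beside each point and a line at the group mean. BAL17VII brain 1 lies with the PBS brains in the B lineage, mitosis, MHC class II and interferon gamma panels, and all 5 BAL17VII brains lie above all PBS brains in the reactive astrocyte panel.

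Many genes of cell division were called higher. Top2a, the topoisomerase that untangles chromosomes before they separate, had log2 intensities of 5.23, 9.68, 9.31, 8.85 and 9.41 in BAL17VII brains 1 to 5, against 4.85, 5.74, 5.31, 5.30 and 5.47 in PBS brains 1 to 5. The 4 BAL17VII brains other than brain 1 lay far above every PBS brain, and brain 1 lay among the PBS brains. The difference was 3.16 ± 0.64 (SE, n = 5 each, limma adjusted p = 0.029), and 3.98 ± 0.18 without brain 1. Mki67, which encodes the proliferation marker Ki-67, had 5.59, 8.73, 8.24, 8.24 and 8.35 in BAL17VII brains, against 5.64, 5.83, 5.64, 5.52 and 5.43 in PBS brains. It rose by 2.22 ± 0.44 (adjusted p = 0.0272), with brain 1 again inside the PBS range. Of the 25 mitosis genes measured, 16 were called higher and 0 lower, with a median difference of 1.10, against -0.01 over all genes, and without brain 1 the count was 23. The spindle checkpoint kinase gene Bub1 (2.65 ± 0.56) and the kinetochore scaffold gene Knl1 (2.40 ± 0.51) rose with overlap through brain 1. Birc5, which encodes survivin of the chromosomal passenger complex, had 6.44, 7.98, 7.64, 7.09 and 7.36 in BAL17VII brains, against 5.87, 5.87, 5.79, 6.10 and 6.18 in PBS brains. Here brain 1 too lay above all PBS brains, and the rise was 1.34 ± 0.22 (adjusted p = 0.0172). The kinetochore motor gene Cenpe rose by 1.39 ± 0.24, also without overlap. The smallest difference of the list was that of the cyclin gene Ccnb2, which was not called (0.22 ± 0.18, adjusted p = 0.647).

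Promoters of many such genes carry a cell cycle genes homology region, which the repressor complex of resting cells binds, and its letters were sought because the mitosis genes moved together. TTTGAA, on either strand, was found in 16 of 21 mitosis genes with a promoter entry (76.2%) and in 18.1% of all 27025 promoters of the same 300 bases. The promoters of Top2a (chr11:99024140-99024439 on the minus strand) and Mki67 (chr7:135716330-135716629 on the minus strand) are shown because these genes mark the order of the brains, with each match in capitals, read as TTCAAA where it lies on the other strand. Sequences are from RefSeq on GRCm38.p6 and run from 250 bases before the start of the gene to 50 after it, and a match is a description of the letters and not a measured binding site.
Top2a: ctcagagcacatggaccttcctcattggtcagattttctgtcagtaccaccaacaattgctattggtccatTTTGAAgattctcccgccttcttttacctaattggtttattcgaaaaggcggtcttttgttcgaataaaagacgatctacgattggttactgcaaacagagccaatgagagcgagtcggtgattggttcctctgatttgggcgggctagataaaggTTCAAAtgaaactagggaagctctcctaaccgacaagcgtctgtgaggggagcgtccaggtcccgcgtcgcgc
Mki67: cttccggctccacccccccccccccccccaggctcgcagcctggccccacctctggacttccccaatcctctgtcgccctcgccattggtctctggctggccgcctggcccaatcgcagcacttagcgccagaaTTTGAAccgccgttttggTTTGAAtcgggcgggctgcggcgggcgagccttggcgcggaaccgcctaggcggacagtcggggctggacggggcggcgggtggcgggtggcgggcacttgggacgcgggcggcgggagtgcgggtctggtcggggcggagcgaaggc

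Of 24 replication genes, 6 were called higher and 0 lower (median 0.40), and 15 were called higher without brain 1. Rrm2, which encodes the regulated subunit of ribonucleotide reductase, had 6.04, 7.54, 7.16, 6.91 and 7.20 in BAL17VII brains, against 5.10, 5.63, 5.60, 5.13 and 5.37 in PBS brains. All 5 BAL17VII brains, brain 1 included, were above all PBS brains, and the rise was 1.60 ± 0.22 (adjusted p = 0.0157). The helicase subunit gene Mcm6 (1.67 ± 0.32) and the gene of its partner Mcm3 (1.17 ± 0.23) rose with overlap, as did the primase gene Prim1 (0.65 ± 0.12).

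Of 18 genes in the list of Myc and ribosome biogenesis, which Myc is known to drive, 5 were called higher and 0 lower (median 0.30). Myc had 7.12, 9.94, 9.37, 9.10 and 9.57 in BAL17VII brains, against 6.85, 7.30, 6.62, 6.71 and 7.0 in PBS brains. Brain 1 was inside the PBS range and the other 4 were well above it, with a rise of 2.13 ± 0.39 (adjusted p = 0.0214). Npm1, which encodes the nucleolar protein nucleophosmin, had 11.22, 11.29, 11.21, 11.12 and 11.37 in BAL17VII brains, against 10.63, 10.59, 10.66, 10.75 and 10.59 in PBS brains. The BAL17VII brains were close to each other, brain 1 in their middle, and the rise was 0.60 ± 0.08 (adjusted p = 0.0157). Nop58, a core protein gene of the small nucleolar particles that modify ribosomal RNA, rose by 0.88 ± 0.13 without overlap. In this list, 6 of the 18 genes lay above all PBS brains in all 5 BAL17VII brains.

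The other genes with the smallest adjusted p were of mixed kinds, all at an adjusted p of 0.0157 and without overlap. They were Plekhf2 (0.65 ± 0.09), the cell division gene Depdc1a (1.01 ± 0.13), Trim25, a ubiquitin ligase gene of antiviral sensing (1.25 ± 0.18), the ribosomal stalk gene Rplp0 (1.12 ± 0.16) and Ciao2a, of iron-sulphur protein assembly (0.70 ± 0.10). Ciao2a had 8.65, 8.45, 8.62, 8.25 and 8.33 in BAL17VII brains, against 7.88, 7.85, 7.75, 7.65 and 7.68 in PBS brains. Its highest value was that of brain 1, the brain with PBS levels of mitosis genes.

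Of 16 B lineage genes measured, 4 were called higher and 0 lower (median 0.84), and 12 were called higher without brain 1. Cd79b, a signalling chain of the B cell receptor, had 6.32, 8.91, 8.54, 7.92 and 8.54 in BAL17VII brains, against 6.21, 5.59, 6.0, 6.38 and 6.03 in PBS brains, a rise of 2.0 ± 0.37 (adjusted p = 0.0214). Brain 1 lay within the PBS range. Its partner Cd79a had 4.91, 7.44, 6.86, 6.33 and 6.92 in BAL17VII brains, against 4.43, 6.57, 5.56, 5.83 and 5.74 in PBS brains, and was not called (0.86 ± 0.42, adjusted p = 0.375). PBS brain 2 was above BAL17VII brains 1 and 4 for this gene. Apart from Cd79b, the 4 called genes were Pou2af1, a coactivator gene of B cells (1.25 ± 0.26), the Fc receptor-like gene Fcrla (0.75 ± 0.17) and Cd72, an inhibitory coreceptor gene (1.03 ± 0.24).

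Ms4a1, which encodes the B cell surface protein CD20, had 4.52, 6.85, 6.57, 6.28 and 6.56 in BAL17VII brains, against 4.83, 4.91, 4.86, 4.96 and 5.19 in PBS brains. Brain 1 was the lowest of the 10 brains and the other 4 were all above the PBS brains. The gene was not called with all brains (1.21 ± 0.33, adjusted p = 0.0931). Its difference without brain 1, which was left out for low levels of such genes, was 1.62 ± 0.12 and only describes the other 4 brains.

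Of 14 B cell receptor signalling genes, 2 were called higher (median 0.30), Btk and Inpp5d, and 6 were without brain 1. Inpp5d rose by 0.48 ± 0.10 without overlap (adjusted p = 0.0367). Btk, the tyrosine kinase gene that carries the receptor signal, had 5.43, 7.23, 7.29, 6.89 and 7.0 in BAL17VII brains, against 4.78, 5.13, 4.40, 4.92 and 5.04 in PBS brains. All BAL17VII brains were above all PBS brains, and the rise was 1.91 ± 0.28 (adjusted p = 0.0157). Stap1, an adaptor gene of B cells that is not in this list, rose by 2.67 ± 0.47 (adjusted p = 0.0192). Its value in brain 1, 4.73, was just above the highest PBS value of 4.67. Rgs13, which dampens chemokine signals in B cells of the germinal centre, had 4.98, 6.82, 6.44, 5.26 and 5.45 in BAL17VII brains, against 4.57, 5.32, 4.54, 4.65 and 4.16 in PBS brains. Brains 1 and 4 overlapped the PBS brains, and the gene was not called (1.14 ± 0.31, adjusted p = 0.0963). Of 9 germinal centre genes 0 were called (median 0.02), and 1, Rgs13, was called without brain 1. Of 9 plasma cell genes 0 were called, and 2 without brain 1.

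MHC class II genes, which display peptides to helper T cells, held the largest difference of all called genes. H2-Ea, the alpha chain of the I-E molecule, had 6.46, 10.35, 9.90, 8.85 and 9.78 in BAL17VII brains, against 6.01, 6.27, 5.94, 5.57 and 5.45 in PBS brains. Brain 1 was just above the highest PBS brain and the other 4 were far above it. The rise was 3.22 ± 0.54 (adjusted p = 0.0181), and 3.87 ± 0.24 without brain 1. H2-Aa, the alpha chain of I-A, had 5.79, 9.19, 8.77, 7.71 and 8.67 in BAL17VII brains, against 5.31, 6.26, 6.17, 5.97 and 5.67 in PBS brains (2.15 ± 0.48, adjusted p = 0.0451). The invariant chain gene Cd74 had 5.28, 8.69, 8.15, 7.28 and 7.91 in BAL17VII brains, against 5.54, 5.33, 5.36, 5.54 and 5.62 in PBS brains (1.99 ± 0.45, adjusted p = 0.047). For both genes brain 1 was among or below the PBS brains and the other 4 were above them. Of 9 MHC class II genes, these 3 were called higher (median 0.67), and 6 were without brain 1. H2-Ab1, the beta chain of I-A, missed the threshold (0.80 ± 0.20, adjusted p = 0.0781). Ciita, the transactivator of the class II genes, had 5.99, 6.36, 6.25, 6.19 and 6.09 in BAL17VII brains, against 6.09, 5.75, 6.20, 5.98 and 5.84 in PBS brains, and was not called (0.20 ± 0.10, adjusted p = 0.418). H2 genes resemble each other closely, so their values are uncertain where probes are shared.

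Class II promoters are known for a conserved Y box that the factor NF-Y binds beside the RFX factors that recruit CIITA. The letters CTGATTGG, on either strand, were in 3 of the 5 class II genes with a promoter entry (60.0%) and in 4.31% of all promoters. That of H2-Aa (chr17:34287774-34288073 on the minus strand) is shown as the promoter of a called class II gene, with the match in capitals.
H2-Aa: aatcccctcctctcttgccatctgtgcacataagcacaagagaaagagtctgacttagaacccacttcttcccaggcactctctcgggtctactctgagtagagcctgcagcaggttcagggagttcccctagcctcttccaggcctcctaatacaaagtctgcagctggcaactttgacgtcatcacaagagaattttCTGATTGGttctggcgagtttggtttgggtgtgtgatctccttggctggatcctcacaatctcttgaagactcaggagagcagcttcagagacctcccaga

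Of 11 class I presentation genes, 3 were called higher and 0 lower (median 0.40), and 4 were called higher without brain 1. B2m, the light chain of MHC class I, had 10.82, 12.02, 11.82, 11.03 and 11.73 in BAL17VII brains, against 10.56, 10.80, 10.63, 10.36 and 10.55 in PBS brains. The groups did not overlap, brain 1 was closest to the PBS brains, and the rise was 0.90 ± 0.20 (adjusted p = 0.039). The peptide trimming enzyme gene Erap1 (0.81 ± 0.16) and the immunoproteasome gene Psmb8 (1.03 ± 0.23) were called as well.

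Genes that interferons induce were spread widely among the BAL17VII brains. Of 20 type I interferon response genes, 3 were called higher and 0 lower (median 0.26), and 8 were without brain 1. The 3 were Trim30a (1.20 ± 0.24), Rtp4 (0.96 ± 0.19) and the RNA sensor gene Ddx58 (0.71 ± 0.14). Rtp4, a restriction factor gene, had 6.94, 8.02, 7.67, 6.86 and 7.36 in BAL17VII brains, against 6.74, 6.45, 6.22, 6.43 and 6.20 in PBS brains. The groups did not overlap, and here brain 4, not brain 1, was the lowest of the BAL17VII brains. Ifit1 and Ifit3, which encode proteins that bind foreign RNA, were not called with all brains (0.80 ± 0.22, adjusted p = 0.102, and 0.94 ± 0.26, adjusted p = 0.0985). Ifit3 had 6.70, 8.04, 7.67, 6.23 and 7.12 in BAL17VII brains, against 6.24, 6.42, 6.20, 6.05 and 6.16 in PBS brains, so brain 4 overlapped the PBS brains and brain 1 did not. Oasl2, of the oligoadenylate synthetase family, had a difference of 0.88 ± 0.25 (adjusted p = 0.107).

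Of 11 interferon gamma response genes 0 were called with all brains (median 0.55), and 6 were without brain 1. Cxcl9, a chemokine gene that draws activated T cells, had 5.16, 8.02, 7.14, 5.41 and 7.06 in BAL17VII brains, against 5.66, 4.70, 5.11, 5.29 and 5.17 in PBS brains. Brains 2, 3 and 5 were well above every PBS brain, while brains 1 and 4 lay within the PBS range. The difference was 1.37 ± 0.43 (adjusted p = 0.158), and 1.72 ± 0.37 without brain 1. The immunity-related GTPase gene Iigp1 had 4.68, 7.80, 7.21, 5.23 and 6.64 in BAL17VII brains, against 5.15, 4.93, 5.04, 5.24 and 4.83 in PBS brains. Brains 2, 3 and 5 were again high, brain 4 lay within the PBS range and brain 1 below it. Brain 4 had a mitosis mean of 7.08, so its low Cxcl9 and Iigp1 values stood beside raised mitosis genes, and those of brain 1 did not. Over the whole list, brain 4 had a mean of 6.06, above the PBS range of 5.80 to 5.98. Brain 1, with 5.88, lay inside that range. The GTPase gene Irgm1 (0.90 ± 0.23, adjusted p = 0.0696), the guanylate-binding protein gene Gbp5 (0.55 ± 0.15, adjusted p = 0.0998) and Cd274, which encodes PD-L1 (0.89 ± 0.25, adjusted p = 0.107), were not called with all brains either.

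Both interferon lists were searched for an interferon-stimulated response element, the site of the STAT and IRF factors. The letters GAAA, any 2 bases and GAAA again, on either strand, were in 9 of 15 type I genes with a promoter entry (60.0%), in 6 of 9 interferon gamma genes (66.7%) and in 3.49% of all promoters. The promoters of Ifit3 (chr19:34583279-34583578 on the plus strand) and Irgm1 (chr11:48871371-48871670 on the minus strand) are shown as examples of either list, with matches in capitals, read as TTTC with 2 bases between where it lies on the other strand, and overlapping in Irgm1.
Ifit3: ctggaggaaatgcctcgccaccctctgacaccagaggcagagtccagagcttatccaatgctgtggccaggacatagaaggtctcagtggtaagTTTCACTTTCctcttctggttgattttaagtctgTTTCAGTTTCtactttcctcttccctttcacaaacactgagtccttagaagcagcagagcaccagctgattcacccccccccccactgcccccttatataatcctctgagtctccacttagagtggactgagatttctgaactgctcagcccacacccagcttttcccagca
Irgm1: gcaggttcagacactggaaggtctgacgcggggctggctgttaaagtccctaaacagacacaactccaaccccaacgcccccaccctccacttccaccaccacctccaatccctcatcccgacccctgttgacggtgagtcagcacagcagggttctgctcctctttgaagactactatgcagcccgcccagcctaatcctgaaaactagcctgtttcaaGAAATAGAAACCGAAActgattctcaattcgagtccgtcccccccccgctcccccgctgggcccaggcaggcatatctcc

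Of 15 genes of lymphoid and inflammatory chemokines and their receptors, 1 was called higher (median 0.22), and 4 were without brain 1. The called gene was Cxcr4, the receptor that guides B cells, with 6.92, 9.10, 8.52, 8.52 and 8.79 in BAL17VII brains, against 6.69, 6.69, 7.0, 7.33 and 7.01 in PBS brains (1.43 ± 0.31, adjusted p = 0.0363). Cxcl13, the chemokine gene that attracts B cells to follicles, had 5.48, 7.87, 7.09, 6.14 and 7.02 in BAL17VII brains, against 5.87, 5.80, 6.02, 5.94 and 5.62 in PBS brains. Brain 1 was the lowest of the 10 and the other 4 were above the PBS brains, and the gene was not called (0.87 ± 0.32, adjusted p = 0.233). Cxcl10, whose product is a second ligand of the chemokine receptor CXCR3 on T cells, had 0.67 ± 0.23 (adjusted p = 0.2). Ccl12, a monocyte attractant gene, had 1.20 ± 0.28 (adjusted p = 0.051).

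Of 20 monocyte and macrophage genes, 2 were called higher and 0 lower (median 0.28), Plac8 and Lyz2, and 6 were without brain 1. Lyz2, the lysozyme of myeloid cells, had 7.97, 9.47, 9.25, 8.07 and 8.88 in BAL17VII brains, against 6.88, 7.99, 7.59, 7.37 and 7.39 in PBS brains (1.29 ± 0.28, adjusted p = 0.0357). Brains 2, 3 and 5 were highest, as for Cxcl9, and brain 1 lay just below the highest PBS brain. Plac8 had 4.60, 8.23, 7.81, 7.08 and 7.94 in BAL17VII brains, against 4.67, 4.60, 4.64, 4.35 and 4.68 in PBS brains (2.54 ± 0.50, adjusted p = 0.0284). Its level in cultured BAL17VII cells was 10.30, above that of any brain. The cultured level was also above all brains for Cybb, a subunit gene of the phagocyte oxidase, with 10.59 in the cultured cells and a difference of 1.59 ± 0.40 (adjusted p = 0.0708), and for Ms4a6c, with 7.99 in the cultured cells and 1.04 ± 0.25 (adjusted p = 0.0554). Homeostatic microglia genes gave 0 calls of 11 (median 0.05), and complement and activated phagocyte genes gave 0 of 14 (median 0.09).

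Outside the lists of cell types, Ifitm3, a membrane protein gene that restricts virus entry, rose by 0.96 ± 0.19 without overlap (adjusted p = 0.0284). It had 9.50, 10.77, 10.44, 9.89 and 10.30 in BAL17VII brains, against 9.34, 9.44, 9.01, 9.01 and 9.28 in PBS brains. Cd36, a scavenger receptor gene, rose by 1.18 ± 0.24 (adjusted p = 0.0293). Of 10 Toll-like receptor genes and partners, 2 were called higher (median 0.29), Ly86, which encodes MD-1 (0.95 ± 0.16), and Tlr1 (0.72 ± 0.14). Tlr1 had 7.14, 7.21, 6.85, 6.53 and 6.83 in BAL17VII brains, against 6.13, 6.55, 6.02, 6.24 and 6.01 in PBS brains. Brain 1 was the second highest of the BAL17VII brains and brain 4 overlapped the PBS range.

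T and NK cell genes were not called as a group. Of 18, only Cd2 was called (2.27 ± 0.42, adjusted p = 0.0214; list median 0.10), with 5.88, 8.87, 8.57, 7.95 and 8.53 in BAL17VII brains, against 5.78, 5.42, 5.72, 5.70 and 5.81 in PBS brains. Cultured BAL17VII cells had this adhesion gene at 11.50, above every brain. Cd3e, a chain of the T cell receptor complex, had 6.09, 7.04, 6.58, 6.21 and 6.32 in BAL17VII brains, against 6.13, 5.91, 6.31, 6.41 and 6.12 in PBS brains. The groups overlapped in 3 of the BAL17VII brains, and the difference was 0.27 ± 0.16 (adjusted p = 0.488). Cd3g was not called with all brains (0.61 ± 0.15, adjusted p = 0.0719).

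Reactive astrocyte genes were one of several lists in which the mean of brain 1, like those of the other BAL17VII brains, lay above every PBS brain. The list mean was 6.80, 7.01, 6.88, 6.84 and 6.82 in BAL17VII brains, against 6.53, 6.69, 6.60, 6.58 and 6.60 in PBS brains, with no overlap. Of its 18 genes, 2 were called higher and 0 lower (median 0.20), and 4 lay above all PBS brains in all BAL17VII brains. Hspb1, a small heat shock protein gene, had 7.72, 8.54, 8.20, 8.15 and 8.42 in BAL17VII brains, against 7.54, 7.63, 7.26, 7.36 and 7.27 in PBS brains (0.80 ± 0.14, adjusted p = 0.0192). Cd44, the hyaluronan receptor, rose by 0.62 ± 0.12 without overlap. Both were high in the cultured cells, at 9.28 and 8.99. The oncostatin M receptor gene Osmr was low there (5.15), and had 7.14, 7.12, 7.23, 7.26 and 7.06 in BAL17VII brains, against 6.84, 7.05, 6.38, 6.44 and 6.54 in PBS brains. All BAL17VII values of Osmr were close together and above the PBS values, and its adjusted p of 0.0554 missed the threshold (0.52 ± 0.12). Gfap, the intermediate filament gene of astrocytes, had 8.60, 7.98, 8.42, 7.95 and 8.13 in BAL17VII brains, against 7.44, 8.23, 8.0, 7.83 and 8.09 in PBS brains (0.30 ± 0.16, adjusted p = 0.419).

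Survival and checkpoint genes held few calls. Bcl2, which protects B cells from apoptosis, had 8.20, 9.35, 9.24, 8.88 and 9.27 in BAL17VII brains, against 7.91, 7.95, 7.84, 7.54 and 7.93 in PBS brains. The groups did not overlap, brain 1 was again the nearest to the PBS brains, and the rise was 1.15 ± 0.18 (adjusted p = 0.0172). It was the only call among 9 Bcl2 family genes (median 0.22). Casp8, the initiator caspase of death receptors, rose by 0.90 ± 0.16 without overlap (adjusted p = 0.0192) and was the 1 call of 7 caspase genes (median 0.03). Of 11 costimulation and checkpoint genes 0 were called, and of 13 genes of cytokines, their receptors and STAT factors 0 were called. Il10, the cytokine gene linked to B cell lymphoma of the brain, had 4.14, 4.31, 3.82, 3.83 and 4.28 in BAL17VII brains, against 4.42, 3.73, 4.13, 4.23 and 4.21 in PBS brains (-0.07 ± 0.14, adjusted p = 0.882). The groups overlapped, and both were low on the arrays.

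The 12 genes called lower had small differences without overlap, and the 8 with the smallest adjusted p lay between -0.66 and -0.37. DQ267102 had 10.21, 10.09, 10.16, 10.32 and 10.15 in BAL17VII brains, against 10.66, 10.63, 10.67, 10.89 and 10.51 in PBS brains (-0.48 ± 0.09, adjusted p = 0.0214). Baiap2, a scaffold gene of dendritic spines, had 7.65, 7.53, 7.66, 7.72 and 7.81 in BAL17VII brains, against 8.09, 8.14, 8.03, 8.01 and 8.04 in PBS brains (-0.39 ± 0.08, adjusted p = 0.0317). For both genes brain 1 stood among the other BAL17VII brains. The others were Galnt18 (-0.43 ± 0.08), the cell polarity gene Patj (-0.48 ± 0.09), the potassium channel gene Kcnk10 (-0.57 ± 0.11), C030016D13Rik (-0.64 ± 0.13), Tmem215 (-0.37 ± 0.08) and Pamr1 (-0.66 ± 0.14). All 12 had a lower mean in cultured BAL17VII cells than in PBS brains, while 63.5% of all genes had a higher one.

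Lists of brain cells held no call. Among these were 13 myelin genes (median 0.04), 16 presynaptic and neuronal cytoskeleton genes (-0.09), 13 astrocyte identity genes (-0.10), 6 genes of oligodendrocyte precursors (-0.06), 12 endothelial genes (-0.02) and 11 choroid plexus genes (-0.09). Other neuronal lists without a call were glutamate and GABA receptor (-0.18), cortical (-0.23), striatal (-0.09), thalamic (-0.28) and immediate early genes (-0.16). Dopamine neuron (0.29) and hypothalamic neuropeptide genes (0.21) had positive medians. Mbp, the myelin basic protein gene, had 10.01, 9.63, 9.80, 9.66 and 9.66 in BAL17VII brains, against 9.69, 9.96, 9.62, 9.56 and 9.73 in PBS brains (0.04 ± 0.10, adjusted p = 0.911), and the groups overlapped fully. The endothelial angiopoietin receptor gene Tek was called lower without brain 1 (-0.75 ± 0.12), and with all brains it had 7.30, 6.59, 6.84, 6.54 and 6.77 in BAL17VII brains, against 7.37, 7.65, 7.13, 7.37 and 7.64 in PBS brains (-0.62 ± 0.14, adjusted p = 0.0505). Abca8a, a lipid transporter gene (-0.83 ± 0.13), and Mamdc2 (-0.59 ± 0.13) were also called lower without brain 1, and with all brains they had -0.60 ± 0.21 and -0.52 ± 0.13 (adjusted p = 0.2 and 0.0715).

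Markers of brain regions and of the pituitary differed between brains of the same group. The mean of 10 cerebellar genes was 7.58, 7.94, 7.84, 9.12 and 8.87 in BAL17VII brains, against 9.07, 8.51, 9.21, 9.16 and 9.0 in PBS brains, so brains 1, 2 and 3 lay below all PBS brains and brains 4 and 5 did not. Gabra6, a receptor subunit gene of cerebellar granule cells, had a difference of -1.12 ± 0.42 (adjusted p = 0.24), and Zic2 of -0.79 ± 0.21 (adjusted p = 0.086). The growth hormone gene Gh had 8.53, 12.33, 12.06, 5.49 and 11.70 in BAL17VII brains, against 5.87, 5.87, 6.79, 5.92 and 5.68 in PBS brains (4.0 ± 1.01, adjusted p = 0.0719). Brain 4 was the lowest of all 10 brains and the other 4 were above every PBS brain. The prolactin gene Prl had 11.98, 13.20, 13.20, 5.57 and 13.02 in BAL17VII brains, against 9.20, 8.86, 10.46, 6.03 and 5.79 in PBS brains (3.32 ± 1.31, adjusted p = 0.262). Of 11 pituitary genes 0 were called with all brains and 4 without brain 1. The part of these regional differences in the other results was not tested. Brain 4, with the lowest pituitary mean of the 10 brains (5.66), was also the lowest BAL17VII brain apart from brain 1 in Cxcl9, Iigp1, Lyz2 and H2-Ea. It held the same place in the means of the mitosis, B lineage and MHC class II lists. Brain 1, lower still in these genes and lists, had a pituitary mean of 6.65, above the PBS range of 5.70 to 6.29.

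The level in cultured BAL17VII cells was set beside that in PBS brains for each higher gene, as a description. The sources do not say whether cultured cells and brains were normalized together, and the array numbers in the labels begin differently for each. Of the 204 higher genes, 202 had a higher mean in the 6 cultured arrays than in the PBS brains, and so had 63.5% of all genes. The 2 others were Lyz2, with 5.23 in cultured cells and 7.44 in PBS brains, and Ifitm3, with 6.45 in cultured cells and 9.22 in PBS brains. Without brain 1, 13 of the 485 higher genes had a lower mean in cultured cells than in PBS brains.

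Among those 485 genes, 36 had a mean in BAL17VII brains 2 to 5 above their mean in the cultured cells. The same share over all genes was not counted, so the 36 are a description only. None of the 23 mitosis and none of the 6 MHC class II genes of the 485 was among them. Of other lists within the 485, 3 of 8 type I interferon, 3 of 6 interferon gamma and 3 of 4 chemokine list genes were. So were 3 of 6 macrophage and 4 of 4 pituitary genes. Cxcl9 averaged 6.91 in brains 2 to 5 and 5.69 in cultured cells, and Iigp1 6.72 and 4.76. Cxcl13 averaged 7.03 in brains 2 to 5 and 5.81 in cultured cells, and Ccl12 6.61 and 5.06. The only B lineage gene of the 36 was Ms4a1, with 6.28 to 6.85 in brains 2 to 5 and 5.15 to 5.65 in the 6 cultured arrays. Top2a showed the usual arrangement, with 8.85 to 9.68 in brains 2 to 5, 11.07 to 11.25 in cultured cells and 4.85 to 5.74 in PBS brains.

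**Figure D4:**
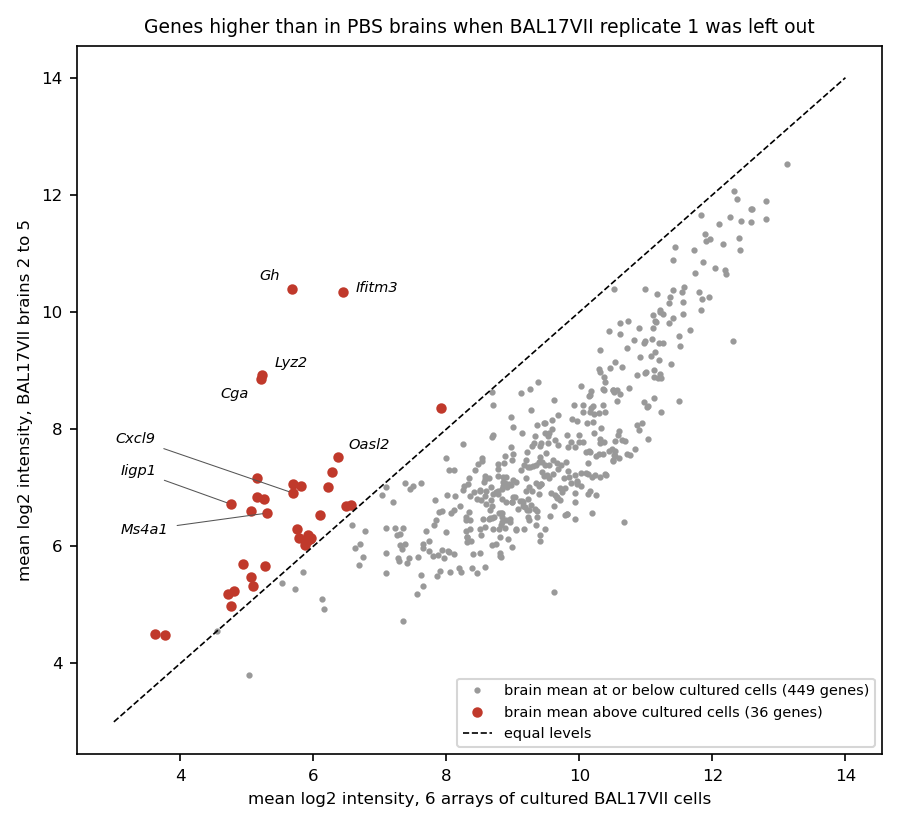
Each point is 1 of the 485 genes called higher than in PBS brains without BAL17VII brain 1, with its mean log2 intensity in 6 arrays of cultured BAL17VII cells on the horizontal axis and its mean in BAL17VII brains 2 to 5 on the vertical axis. The dashed line marks equal levels, and the 36 red points above it include Gh, Cga, Lyz2, Ifitm3, Cxcl9 and Ms4a1.

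Whether the difference from PBS depended on the implanted line was tested between BAL17VII and BAL17 brains at day 21, where the PBS arrays cancel. Of 19938 genes, 944 were called higher (4.73%) and 486 lower (2.44%) in BAL17VII brains. Of the 204 genes higher than in PBS brains, 65 were below and 3 above their level in BAL17 brains by this test. Myc averaged 9.02 ± 1.11 (SD) in BAL17VII brains and 10.74 in BAL17 brains, a difference of -1.72 ± 0.39 (SE, adjusted p = 0.0203). Replication genes were lower for 11 of 24, Myc and ribosome biogenesis genes for 9 of 18 and mitosis genes for 5 of 25, while none of these lists held a higher gene. The differences of Top2a (-1.21 ± 0.63, adjusted p = 0.252) and H2-Ea (-0.53 ± 0.54, adjusted p = 0.575) between the lines were not called. This count also depended on single brains, with 762 genes called without BAL17VII brain 1, 740 without brain 3 and 869 without brain 5, and 2315 without brain 2. The differences and list counts given here include brain 1, whose division genes were at the level of the PBS brains. In BAL17VII brains 2 to 5, Myc averaged 9.50 and Top2a 9.31, against 10.74 and 9.70 in BAL17 brains. How much of the list counts came from brain 1 was not tested.

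The genes most below the BAL17 brains were Rgs13, with a mean of 5.79 in BAL17VII brains and 8.97 in BAL17 brains (-3.18 ± 0.41, adjusted p = 0.00116), and the inflammatory caspase gene Casp4, with 6.33 and 8.71 (-2.38 ± 0.29). The surface receptor gene Slamf7 (-2.35 ± 0.31), the phosphatase gene Ptpn22 (-2.26 ± 0.27), the receptor gene P2ry10 (-2.09 ± 0.54) and the kinase gene Map3k15 (-2.01 ± 0.20) followed. The cultured BAL17VII cells had Rgs13 at 8.98, well above the BAL17VII brains. The genes most above were the pituitary genes Prl (6.10 ± 1.10), Gh (4.44 ± 0.99) and Cga (3.31 ± 0.91), the radial glia gene Fabp7 (2.36 ± 0.24), I730030J21Rik (1.64 ± 0.34) and the histone gene H2bc4 (1.45 ± 0.18). None of these genes was called against PBS with all brains. Fabp7 averaged 10.07 in BAL17VII, 9.81 in PBS and 7.71 in BAL17 brains at day 21. H2bc4 averaged 8.47, 8.33 and 7.02, and I730030J21Rik 8.09, 7.46 and 6.45, in the same order. Myelin genes were higher in BAL17VII than in BAL17 brains for 8 of 13, microglia genes for 7 of 11, neuronal genes for 6 of 16 and astrocyte identity genes for 5 of 13, with 0 lower in each list. None of these lists held a call against PBS.

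**Figure D5:**
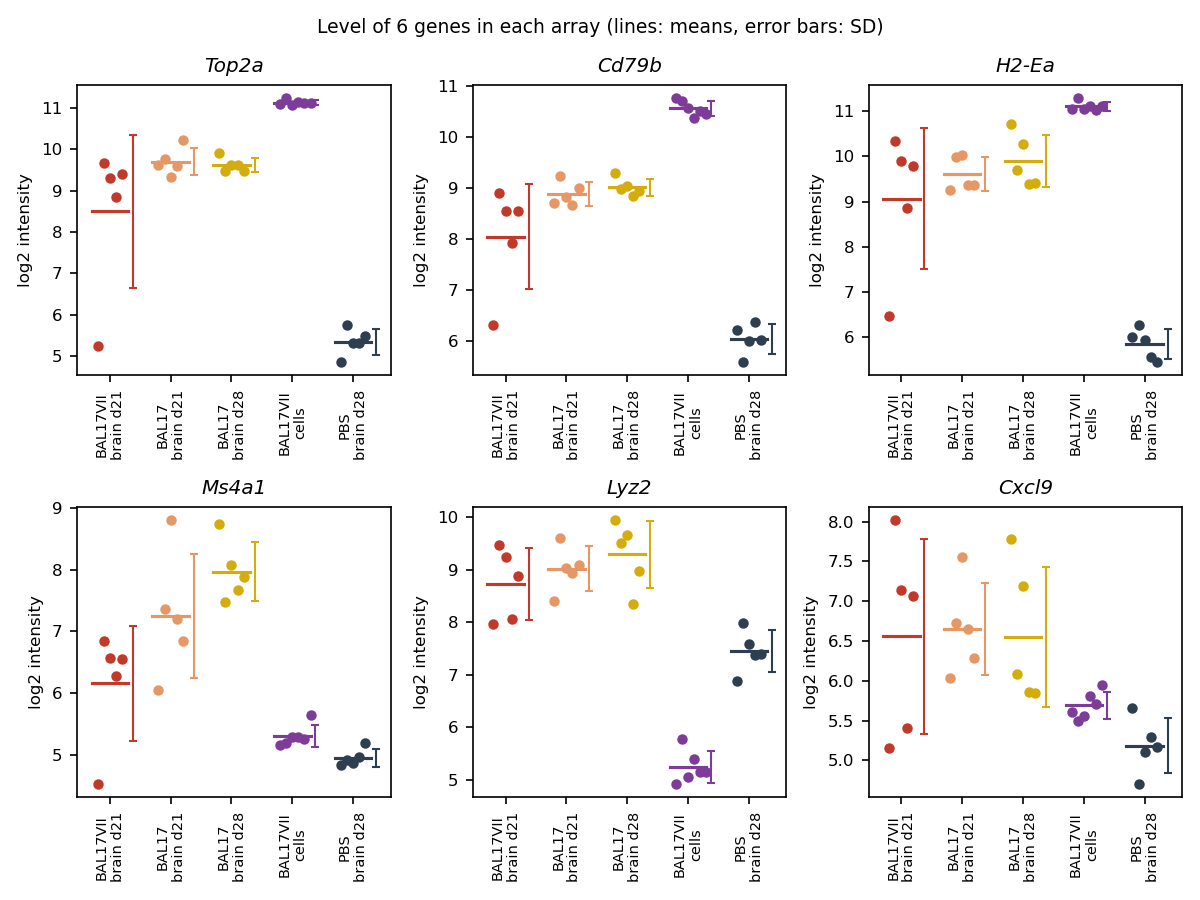
Log2 intensity of 6 genes in every array of BAL17VII brains at day 21, BAL17 brains at day 21 and day 28, cultured BAL17VII cells and PBS brains at day 28, with a line at the mean and an error bar of the SD. Top2a, Cd79b and H2-Ea are highest in the cultured cells, whereas Ms4a1, Lyz2 and Cxcl9 have higher means in all 3 groups of implanted brains than in the cultured cells.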

How the data were processed

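RNA of 20 mouse brains and 12 arrays of cultured cells was measured on Affymetrix gene arrays. Per the submitters' processing notes, the authors deposited RMA intensities from Affymetrix Expression Console, with no version given. Whether lines and brains were normalized together is not given in the sources used here. The intensities stand on a linear scale, so log2 was taken. Array medians lay between 81.75 and 89.37 over the 10 arrays compared, and correlations within a group between 0.979 and 0.9934. The number of arrays limits the precision.

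Of 35556 probe sets, 21789 carried 1 symbol in the platform annotation, 1621 several and 12146 none, and 21698 had an Entrez ID in the GRCm38.p6 gene table. Each gene stands for the probe set that was brightest on average on the 10 arrays. Groups were compared with limma 3.58.1 in R 4.3.3 (lmFit and eBayes on each pair of groups, no filter, two-sided, Benjamini-Hochberg over all probe sets), and tables were made with Python 3.11.15 and pandas 2.3.3. Tested on simulated data for the comparison with PBS, limma recovered 93% of 100 genes given a log2 change of 1 and 100% of those given 2, among 21789 probe sets, and 4.46% of its calls were false. The simulated noise was drawn independently for each probe set and array. It held no outlying brain and no genes that move together, so these rates do not carry over to the calls made here.

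The text names the 8 higher and 8 lower genes with the smallest adjusted p, up to 4 members of each list by p, the 6 largest in each direction without BAL17VII replicate 1, called genes below PBS level in cultured cells, the 6 largest in each direction between lines, and fixed genes. Ccnb2, Cd36, Cxcl10, Gabra6, Ifit1, Ifit3, Iigp1 and Oasl2 came in by none of these rules and were chosen after their values were seen. The members and lists were chosen with earlier results of these data known. Alternatives were other scalings, filters, moderation, weights, probe set means, a fit on 20 brains, a replicate block and leaving out each array.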

Additional observations from a re-analysis of the deposited data

Results flagged for a closer look

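Among the genes named above, 216 groups of 5 brains were examined for a brain far from the rest, and 20 held such a brain by Dixon's criterion, where chance flags about 1 in 20 groups. In BAL17VII brains the far brain was replicate 1, below the others, for Top2a (5.23), Mki67 (5.59), Bub1 (4.07), Knl1 (4.90), Ccnb2 (6.18), Mcm6 (5.92), Pou2af1 (6.35), Ms4a1 (4.52), Btk (5.43), Cxcr4 (6.92), Ptpn22 (5.32) and P2ry10 (2.78), and replicate 4, below the others, for Prl (5.57). Replicate 1 had already been singled out by its low means over division and B cell genes, so its values in those genes restate that observation and are no further test of it, and the chance rate does not apply to them. In PBS brains, replicate 3 was high for Mcm3 (6.34), Fcrla (6.14) and Gh (6.79), and replicate 2 for Irgm1 (6.77). Replicate 4 was low for Bcl2 (7.54) and Plac8 (4.35), and replicate 2 for Cd2 (5.42).

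Over all 19938 genes, limma's test of BAL17VII minus BAL17 brains at day 21 called 4.73% higher and 2.44% lower. The 95 named genes include the 6 largest in each direction, which this same test had chosen, so their calls were fixed in advance. Of the 95, 27 differed between the implanted lines in this test, with BAL17VII brain 1 included. Lower in BAL17VII brains were Rgs13 (-3.18), Casp4 (-2.38), Slamf7 (-2.35), Ptpn22 (-2.26), P2ry10 (-2.09), Map3k15 (-2.01), Myc (-1.72), Cxcr4 (-1.42), Mcm6 (-1.28), Pou2af1 (-1.06), Cd274 (-0.90), Rplp0 (-0.87), Bcl2 (-0.84), Depdc1a (-0.61), Nop58 (-0.59), Prim1 (-0.54), Casp8 (-0.51) and Npm1 (-0.46). Higher were Prl (6.10), Gh (4.44), Cga (3.31), Fabp7 (2.36), I730030J21Rik (1.64), H2bc4 (1.45), Tshb (1.38), Mbp (0.43) and Ciao2a (0.42).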

How the results depend on the processing

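Against PBS brains, leaving out each array in turn gave 0 to 561 genes called, 0 to 485 higher and 0 to 201 lower; the lowest counts came without BAL17VII brain 2, 3 or 5 and the highest without brain 4 for all and lower genes and without brain 1 for higher genes. Between the lines the ranges were 500 to 2496 called, 339 to 1831 higher and 161 to 820 lower, with the lowest without BAL17 brain 5 and counts also under the 1.5-fold limit without BAL17VII brains 1, 3 and 5 and BAL17 brains 1, 3 and 4, and over it without brain 2 of either line. A filter at percentile 50, with 9872 genes tested, gave 122 higher and 25 lower against PBS. One at percentile 75, with 4795 genes tested, gave 117 called, 92 higher and 25 lower against PBS. Between the lines the filter at percentile 75 gave 236 lower. A fit on all 20 brains gave 572, 419 and 153 against PBS and 2717, 1802 and 915 between the lines. Array weights gave 632, 536 and 96, and 2926, 1995 and 931. Quantile normalization gave 23 lower genes against PBS. With the replicate number as a block, 291 genes were called against PBS, 271 higher and 20 lower, and 1169 between the lines; same-numbered brains did not deviate together (correlations between -0.218 and 0.267), so the numbers pair nothing. The cause of the changes in count was not tested. Mbp turned to -0.02 without brain 1 and ran up to 0.10 without PBS brain 2, uncalled in either case. Median centring, group weights and probe set means kept 215, 216 and 190 of the 216 calls, and trended moderation 145. Of 95 named genes, trended moderation ended the call of 23, quantile normalization of 7, the block of 3, probe set means of 3 and the fit on 20 brains of 1. Levels near the array background limit the low genes.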

Other observations

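Ribosomal protein genes were chosen by their symbols after their values were seen, and no test was made of them as a group. Their mean log2 intensity over 63 genes was 9.82, 10.15, 9.98, 9.66 and 9.92 in BAL17VII brains 1 to 5, against 9.45, 9.67, 9.52, 9.45 and 9.61 in PBS brains 1 to 5. Brain 4 was the lowest BAL17VII brain and overlapped the PBS brains, and brain 1 did not. Of the 63 genes 11 were called higher than in PBS brains and 0 lower, with a median difference of 0.36, and 21 were lower than in BAL17 brains at day 21, with a median difference of -0.36. These genes have many processed copies, and 219 probe sets measured them, so their values are uncertain where probes are shared.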
